A study of Mus musculus with 2 samples.

Results

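Newborn migrating excitatory neurons are the young glutamatergic cells of the embryonic cortex that have stopped dividing and are on their way from the germinal zones to the cortical plate. Here they were chosen by the raw UMI counts (unique molecular identifiers, which count captured RNA molecules) of 7 genes in each cell: at least 2 of Neurod1, at most 1 of Eomes, at least 3 of Neurod2 and Neurod6 together, at most 1 of Gad1 and Gad2 together, and at most 2 of Slc1a3. The choice gave 2326 of 22347 kept cells, 1037 of 10879 in embryo 4 and 1289 of 11468 in embryo 5. In embryo 4 they were 9.53% of kept cells (exact 95% binomial confidence interval 8.99 to 10.1) and in embryo 5 they were 11.2% (10.7 to 11.8), with intervals that cover counting error only.

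In the developing cortex, radial glia line the ventricle and give rise to intermediate progenitors, which carry Eomes and divide again in the subventricular zone. Their daughters switch on basic helix-loop-helix factors of the NeuroD family, send out several short processes, then take a bipolar shape and climb along the fibres of radial glia. On the way they read netrin, semaphorin, slit, ephrin and reelin signals, and they take up the features of the cortical layer in which they will settle.

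The cells come from 2 embryos at embryonic day 16.5, both labelled WT and described as control animals of the Eomes-Cre line, whose Cre is driven from a gene of intermediate progenitors. The sample titles spell the line EoMltt3 and the series text EomesMllt3, and a supplementary legend of the paper names C57BL/6J mice for cortices of this age. The tissue label reads brain hemispheres, while the extraction protocol names the cortex, dissociated with papain and run on the 10x Genomics 3′ v3.1 chemistry. Each embryo gave 1 library, so n = 2 embryos in 1 condition throughout, and paired values below are for embryo 4 and then embryo 5. The libraries held 124318613 and 117679925 UMIs over 12825 and 12289 barcodes. Both embryos carried Xist, the RNA that silences an X chromosome in females, with 104189 and 92378 UMIs, and almost no UMIs of the Y-linked gene Ddx3y, with 5 and 16, so the pair did not differ in sex by these genes. The libraries had 46 barcodes in common, of which 6 and 3 fell among the newborn cells.

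Among the newborn cells the values that chose them lay close to the thresholds for Neurod1 and far above them for Neurod2 and Neurod6. Neurod1, a factor that starts neuronal differentiation, had a median of 3 UMIs in both embryos, and 386 and 459 of the cells stood at the minimum of 2. Neurod2 and Neurod6, which follow it in excitatory neurons, had a joint median of 17 and 14 UMIs. The genes that had to be low were at 0 in most of the cells. Eomes was at 0 in 85.7% and 86.6% of the cells, Gad1 and Gad2 were at 0 in 95.6% and 97.1%, and Slc1a3, a glutamate transporter of radial glia, was at 0 in 86.9% and 89.6%. More cells stood just outside the Neurod1 threshold than just outside any other. On that side, 806 and 868 cells passed every other term with 1 Neurod1 UMI, 110 and 118 with 2 Eomes UMIs, 15 and 24 with 3 Slc1a3 UMIs, 6 and 9 with 2 Gad1 or Gad2 UMIs, and 3 and 11 with 2 UMIs of Neurod2 and Neurod6. Requiring 1 Neurod1 UMI gave shares of 16.9% and 18.8%, requiring 3 gave 5.98% and 7.24%, and thinning every cell to 4000 UMIs first gave 5.48% and 6.43%, so the share moved with the threshold and with depth.

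Unc5d, Sema3c and Slc17a6, the markers that took no part in the choice, were all high in the newborn cells. Unc5d, a receptor for netrin and for FLRT adhesion proteins on chromosome 8 (GRCm38.p6, chr8:28646717-29219671), stood at 3321 and 3325 CPM in the newborn sums, where CPM are the UMIs of a gene per 1000000 UMIs of the group. Sema3c, a secreted semaphorin (chr5:17574816-17730268), stood at 180.3 and 187 CPM, and Slc17a6, the vesicular glutamate transporter VGLUT2 (chr7:51621830-51671126), at 203 and 189 CPM. The values of the embryos were close to each other for each gene. In Gad_high cells, inhibitory neurons with at least 3 UMIs of Gad1 and Gad2, the same genes stood at 275 and 143, 13.9 and 9.37 and 4.86 and 4.69 CPM. After thinning each cell to 3000 UMIs, which 1036 and 1283 newborn cells had, Unc5d had a UMI in 86.0% and 83.2% of newborn cells and in 21.7% and 15.2% of Gad_high cells, where it is not a marker. Sema3c had one in 33.7% and 37.4% against 2.75% and 1.33%, and Slc17a6 in 43.0% and 41.5% against 1.03% and 0.667%. All 3 shares were far above those in Gad_high cells in each embryo. Unthinned, with median depths of 10522 and 9096 UMIs in newborn cells and 6847 and 6604.5 in Gad_high cells, Unc5d was seen in 91.6% and 89.1% against 30.3% and 20.7%, Sema3c in 61.0% and 59.9% against 5.30% and 3.15%, and Slc17a6 in 72.2% and 68.8% against 2.02% and 1.08%. Unc5d and Slc17a6 stood higher still in cells that passed every other term but had at least 2 Eomes UMIs (607 and 558 cells), at 4236 and 4269 CPM and 379 and 342 CPM, so they do not mark the newborn cells alone.

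**Figure D1:**
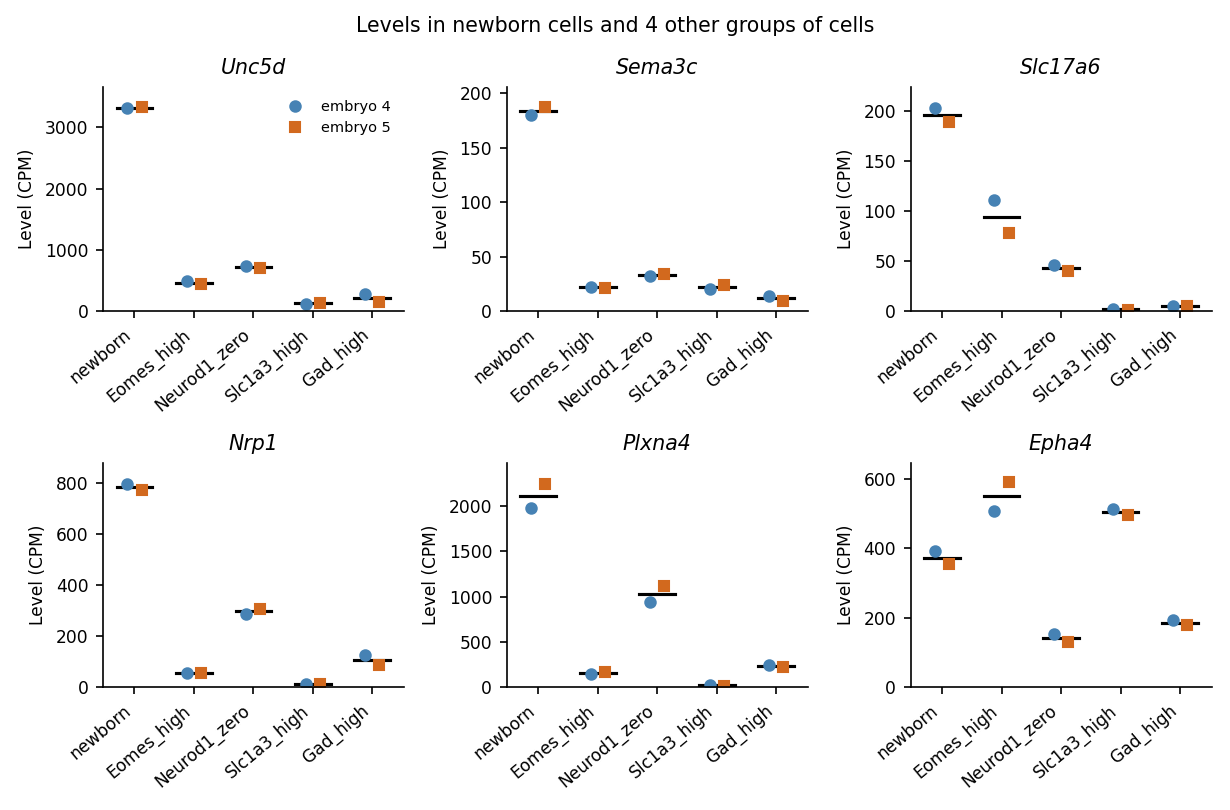
CPM (vertical axes, linear from 0) of Unc5d, Sema3c, Slc17a6, Nrp1, Plxna4 and Epha4 in the summed UMIs of 5 groups of cells, with 1 point per embryo and a bar at the mean of the 2. Unc5d, Sema3c, Slc17a6, Nrp1 and Plxna4 have their highest points in newborn cells, and Epha4 in Eomes_high cells.

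Markers of interneurons and of radial glia were low in the newborn sums, while erythroid markers were not. The 9 interneuron markers outside the choice summed to 20.6 and 19.4 CPM, with Nxph1 the most abundant, against 5378 and 5511 CPM in Gad_high cells. The 9 radial glia markers summed to 547 and 509 CPM, led by Ptprz1, a receptor phosphatase that neurons also carry, against 8270 and 8192 CPM in Slc1a3_high cells, which have at least 3 UMIs of Slc1a3. These sums were low beside those of the cells that the markers define. The choice favoured this, as Gad1, Gad2 and Slc1a3 were capped in newborn cells and required in the groups set beside them. The 7 markers of intermediate progenitors summed to 172 and 168 CPM, led by Insm1. The 6 Cajal-Retzius markers summed to 108 and 169.6 CPM, led by Reln, the secreted reelin protein, at 87.2 and 146 CPM. No term of the choice named a gene of Cajal-Retzius or blood cells. The 5 erythroid markers summed to 1085 and 902 CPM, led by Hbb-bs. Most of this RNA lay in 3 and 2 newborn cells with at least 100 haemoglobin UMIs, as the haemoglobin genes stood at 1078 and 896 CPM with them and at 172 and 353 CPM without. The other lists of non-neuronal cells were lower. Microglial, endothelial, mural and oligodendrocyte precursor markers summed to at most 21.98 CPM in either embryo, and no marker of any of these lists was at 0 in both embryos. A simulated-doublet score marked 62 and 103 newborn cells (5.98% and 7.99%), against 8.70% and 9.17% of all kept cells, and marked cells were kept. It marked 4.09% and 4.36% of Slc1a3_high and 2.88% and 2.07% of Gad_high cells. In the groups compared below it marked 5.66% and 2.93% of Eomes_high and 3.15% and 3.37% of Neurod1_zero cells.

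The first comparison set the newborn cells beside Eomes_high cells, the intermediate progenitors with at least 2 Eomes UMIs and at most 2 of Neurod2 and Neurod6 (265 and 307 cells). Newborn cells carried far more RNA of axon guidance receptors, of the migration cytoskeleton, of layer factors and of synaptic genes, and less of Notch and cell cycle genes, while the proneural genes were split. Of 16216 genes tested, 3672 were higher and 3359 were lower in newborn cells at an adjusted p under 0.05 (edgeR quasi-likelihood test with Benjamini-Hochberg correction over all genes tested, n = 2 embryos), which is 22.6% and 20.7% of the genes, or 43.4% in all. Because so many genes differed, a count within a list is read beside these shares, and the median log2 fold change of all tested genes was 0.02. The choice of cells used this contrast through Eomes, Neurod1, Neurod2 and Neurod6, which are given no test. Signs of RNA content moved with the contrast as well, with Malat1, a nuclear noncoding RNA, at 19342 and 19954 CPM in newborn and 12153 and 11263 CPM in Eomes_high cells and ribosomal protein genes at 9.78% and 9.48% against 14.2% and 15.03% of UMIs, and their part in the results was not tested.

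Guidance and adhesion genes of migrating neurons were mostly higher in the newborn cells, 23 of 32, with a median log2 fold change of 1.22. Of the others 5 were lower and 4 did not pass the test. Nrp1, the receptor that binds class 3 semaphorins, stood at 797 and 769.7 CPM in newborn cells and 54.5 and 55.2 CPM in Eomes_high cells (log2 fold change 4.04, SE 0.16, edgeR adjusted p = 2.89e-08). Plxna4, its signalling partner, stood at 1980.4 and 2247 against 140.2 and 169 CPM (log2 fold change 3.97, SE 0.15, edgeR adjusted p = 2.86e-08). Both genes were high in the newborn sums of both embryos and low in both Eomes_high sums, with no overlap. Robo2, a slit receptor, stood at 3406 and 3457 against 623 and 524 CPM (log2 fold change 2.78, SE 0.13, edgeR adjusted p = 8.53e-08). Cntn2, an adhesion protein of migrating neurons and their axons, stood at 213 and 233 against 20.6 and 16.8 CPM (log2 fold change 3.77, SE 0.18, edgeR adjusted p = 8.29e-08). Unc5d and Sema3c, which belong to this list too, were higher in both embryos by log2 fold changes of 3.04 (SE 0.23, edgeR adjusted p = 2.16e-06) and 3.28 (SE 0.15, edgeR adjusted p = 8.53e-08). Epha4, an ephrin receptor, went the other way, at 392 and 355 CPM in newborn cells and 509 and 593 CPM in Eomes_high cells (log2 fold change -0.36, SE 0.10, edgeR adjusted p = 0.0147), and so did the reelin receptor Lrp8, at 208 and 212 against 342 and 343 CPM (log2 fold change -0.50, SE 0.070, edgeR adjusted p = 0.000182). Both were lower in the newborn sums of each embryo, though the size for Epha4 depended on the embryo (a log2 ratio of -0.17 in embryo 4 alone and -0.55 in embryo 5 alone) and it did not pass with at least 3 Neurod1 UMIs required (-0.20).

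The cytoskeletal genes of migrating neurons were higher for 21 of 24 members, with a median log2 fold change of 1.48. Dcx, the microtubule protein doublecortin, stood at 692 and 727 CPM in newborn cells and 189 and 166 CPM in Eomes_high cells (log2 fold change 2.20, SE 0.11, edgeR adjusted p = 1.08e-07). Rnd2, a small GTPase that controls radial migration, stood at 199.7 and 181 against 74.0 and 72.8 CPM (log2 fold change 1.57, SE 0.083, edgeR adjusted p = 1.68e-07). Newborn sums were above Eomes_high sums for both genes in both embryos. Nde1, a dynein partner of dividing progenitors, was lower at 5.214 and 5.0001 against 35.8 and 34.0 CPM (log2 fold change -2.57, SE 0.19, edgeR adjusted p = 1.86e-06). Tubb2a and Tubb2b are near-identical in sequence, so the split of reads between them is uncertain.

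Most genes of both upper and deep layers were higher in newborn cells than in Eomes_high cells. The upper-layer list holds Unc5d and Plxnd1, which are counted among the guidance genes too, and most of its RNA in newborn cells was Unc5d. Of the 15 upper-layer genes 10 were higher, 1 was lower and 4 did not pass, with a median of 1.31, and of the 14 deep-layer and subplate genes tested (Cplx3 was too low to test) 10 were higher, 2 were lower and 2 did not pass, with a median of 1.34. Bcl11b, which directs projection below the cortex, stood at 439.8 and 517 against 58.4 and 48.4 CPM (log2 fold change 3.36, SE 0.12, edgeR adjusted p = 2.05e-08). It was high in newborn cells and low in Eomes_high cells of both embryos. Lhx2, a factor of progenitors and upper-layer neurons, did not pass the test, at 329.8 and 318 against 364 and 402 CPM. Mdga1, an adhesion protein of upper layers, was lower at 54.5 and 54.2 against 175 and 173 CPM (log2 fold change -1.48, SE 0.10, edgeR adjusted p = 1.08e-06).

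Genes of maturation and the synapse were higher for 21 of 26 members, with 2 lower and a median log2 fold change of 1.99. Slc17a6 was among them, at 203 and 189 against 111 and 78.0 CPM (log2 fold change 1.25, SE 0.16, edgeR adjusted p = 7.98e-05). Rbfox1, a neuronal splicing factor, stood at 3531 and 3835 CPM in newborn cells and 178 and 78.8 CPM in Eomes_high cells (log2 fold change 5.04, SE 0.28, edgeR adjusted p = 2.53e-07). Gria2, an AMPA receptor subunit, stood at 1224 and 1292 against 187 and 138 CPM (log2 fold change 3.15, SE 0.13, edgeR adjusted p = 4.06e-08), and Kcnq3, a subunit of the M-type potassium channel, at 1052 and 1232 against 63.1 and 64.0 CPM (log2 fold change 4.37, SE 0.11, edgeR adjusted p = 3.51e-09). For these genes the newborn sums of both embryos lay above both Eomes_high sums, with a log2 ratio for Rbfox1 of 4.51 in embryo 4 alone and 5.80 in embryo 5 alone. Rbfox3, the neuronal antigen NeuN, did not pass the test, at 332 and 368 against 384 and 418 CPM.

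Most Notch and cell cycle genes were lower in newborn cells, and proneural genes went both ways. Of the 20 genes of the proneural cascade 11 were lower and 6 higher (median -1.08), though their summed level was higher in newborn cells (9881 and 10005 against 7342 and 7465 CPM), of the 20 Notch pathway genes 14 were lower and 2 higher (median -1.34), and of the 22 cell cycle genes 20 were lower and 1 higher (median -2.45). Neurog2, the proneural factor that acts upstream of the NeuroD genes, stood at 24.0 and 22.4 CPM in newborn cells and 687 and 618 CPM in Eomes_high cells (log2 fold change -4.61, SE 0.25, edgeR adjusted p = 2.13e-07). Notch1, the receptor that holds progenitors in division, stood at 3.45 and 3.68 against 106 and 113 CPM (log2 fold change -4.74, SE 0.12, edgeR adjusted p = 3.51e-09). Both were low in newborn cells of each embryo and high in Eomes_high cells. Ccnd1, a cyclin of the G1 phase, stood at 6.26 and 6.47 against 94.6 and 99.6 CPM (log2 fold change -3.73, SE 0.10, edgeR adjusted p = 4.03e-09), and Mki67, a protein of dividing cells, at 11.4 and 14.0 against 79.1 and 80.0 CPM (log2 fold change -2.44, SE 0.24, edgeR adjusted p = 1.38e-05). The member that was higher was Cdkn1b, the p27 inhibitor of cyclin-dependent kinases that accompanies cell cycle exit, at 135 and 112 against 100.5 and 97.2 CPM (log2 fold change 0.52, SE 0.14, edgeR adjusted p = 0.0131). It did not pass the test where cells were chosen after thinning to 4000 UMIs and their unthinned counts summed (0.17). Among proneural genes that were higher, Sox11, a factor of young neurons, stood at 3740.0 and 3887 against 1115 and 1142 CPM (log2 fold change 1.96, SE 0.079, edgeR adjusted p = 3.33e-08), and Zbtb18, a repressor needed for neuronal migration and differentiation, at 506 and 520.4 against 157 and 160.0 CPM (log2 fold change 1.90, SE 0.073, edgeR adjusted p = 2.86e-08). Their newborn sums lay above the Eomes_high sums in both embryos.

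Beyond the lists, the genes with the greatest fold changes were taken by rule. Among those higher in newborn cells, Tafa1, a secreted chemokine-like protein, stood at 191 and 209 against 3.90 and 2.40 CPM (log2 fold change 6.18, SE 0.43, edgeR adjusted p = 1.14e-06). Myt1l, a zinc finger factor that represses genes of other cell fates in neurons, stood at 1472 and 1616 against 98.5 and 80.0 CPM (log2 fold change 4.31, SE 0.13, edgeR adjusted p = 6.59e-09). Dscam, an adhesion protein of the immunoglobulin family, stood at 520.4 and 539 against 33.9 and 24.0 CPM (log2 fold change 4.39, SE 0.15, edgeR adjusted p = 1.87e-08), and Chrna7, the alpha-7 nicotinic receptor subunit, was also among them. These genes were high in newborn cells and low in Eomes_high cells of both embryos, though Tafa1 was uneven among newborn cells, at 519.9 and 595 CPM in those with no Unc5d UMI after thinning to 3000 UMIs and 40.5 and 80.3 CPM in those with at least 5. On the lower side, Smoc1, a secreted calcium-binding protein, stood at 1.68 and 1.99 against 198 and 194 CPM (log2 fold change -6.52, SE 0.25, edgeR adjusted p = 2.86e-08). Gas1, a membrane protein of the Hedgehog pathway, stood at 3.21 and 2.72 against 139.8 and 126 CPM (log2 fold change -5.29, SE 0.16, edgeR adjusted p = 6.59e-09), and Tfap2c, a factor of cortical progenitors, at 3.05 and 2.35 against 97.4 and 98.8 CPM (log2 fold change -4.98, SE 0.19, edgeR adjusted p = 2.89e-08). All 3 were at a few CPM in the newborn sums of both embryos.

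The Eomes_high sums held markers of other cells in part. The 9 radial glia markers summed to 2320 and 2158 CPM in them, led by Vim, against 547 and 509 CPM in newborn cells, and 8 of the 9 were lower in newborn cells with 1 higher. Of the 6 Cajal-Retzius markers, which summed to 412 and 434 CPM in Eomes_high cells, 5 were lower in newborn cells. Both lists were lower in the newborn sums of both embryos. The part of these cells in the results was not tested, but with Eomes_high cells that had over 2 Cajal-Retzius UMIs left out (a setting chosen after seeing the data) 3988 genes were higher and 3360 lower. Set instead beside cells that carried Eomes and Neurod1 together with Neurod2 and Neurod6 (607 and 558 cells, also a choice made after seeing the data), the newborn cells had 2096 genes higher and 1953 lower. Sema3c, at 119.7 and 137 CPM in those cells, was still higher in newborn cells (log2 fold change 0.57) and passed the edgeR test there. The direction turned for Slc17a6, which was lower in newborn cells and passed (-0.83), and for Unc5d (-0.30) and Cdkn1b (-0.21), which did not pass. Robo2 (0.11), Rnd2 (0.11), Dcx (0.05) and Dnmt3a (-0.29) did not pass there either.

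Genes of the stress response and of DNA methylation went both ways in this comparison. Of the immediate early genes, which tissue dissociation can switch on, 6 of 12 were lower in newborn cells and 2 were higher (median -1.23). Of the 9 genes of DNA methylation, 3 were higher and 3 lower. Over all tested genes 22.6% were higher and 20.7% lower, so these counts say little about the list. Dnmt3a, which methylates unmodified DNA, stood at 18.8 and 24.8 against 78.7 and 70.4 CPM (log2 fold change -1.57, SE 0.15, edgeR adjusted p = 9.71e-06), lower in newborn cells of both embryos.

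**Figure D2:**
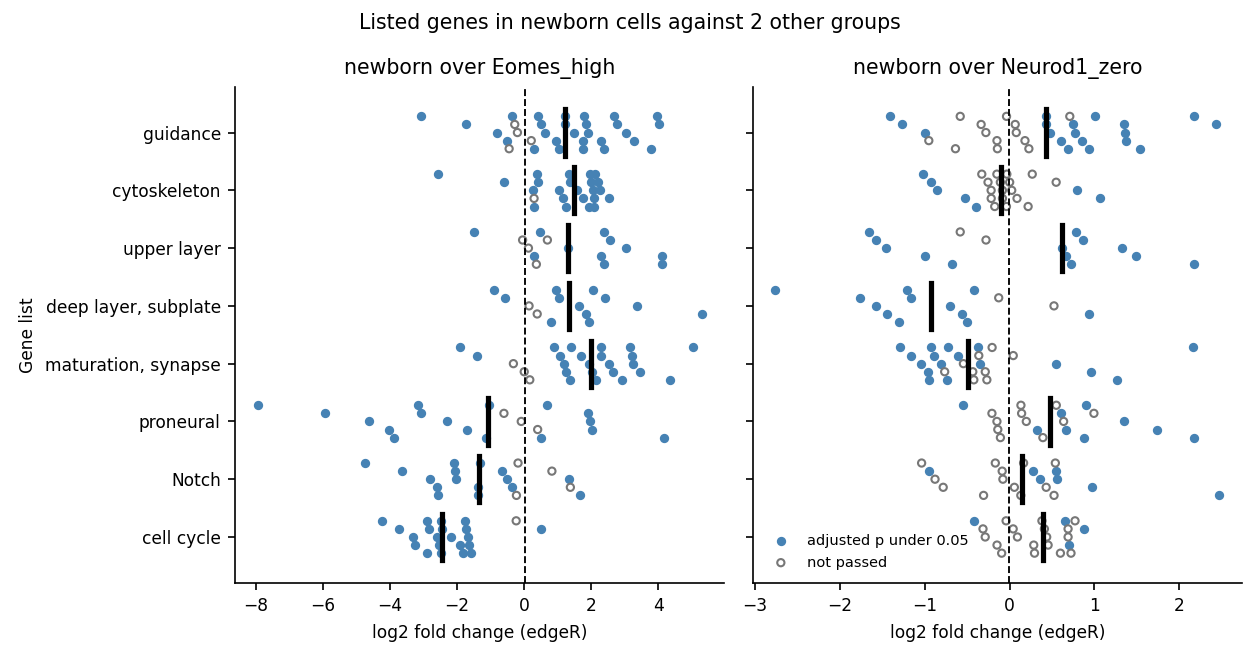
Log2 fold change of the summed UMIs of newborn cells over Eomes_high cells (left) and over Neurod1_zero cells (right), with 1 point per tested gene of each gene list, filled where the edgeR adjusted p was under 0.05. The thick bar is the median of the list and the dashed line the median of all 16216 tested genes, and of the 8 lists drawn the median is lowest for cell cycle genes on the left and for deep-layer genes on the right.

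The second comparison set the newborn cells beside Neurod1_zero cells, excitatory neurons that pass every other term of the choice but have no Neurod1 UMI (3146 and 3408 cells, median 11367 and 10091.5 UMIs). Newborn cells carried more RNA of guidance receptors such as Unc5d and Nrp1 and less of most deep-layer genes. Among proneural genes 8 of 20 were higher and among Notch genes 6 of 20, while most of both lists did not pass in the main fit. Of 16216 genes tested by edgeR, 1297 were higher and 1393 lower, which is 8.00% and 8.59% of the genes, or 16.6% in all, and the median log2 fold change was -0.01. It uses the same newborn sums as the first comparison, so the results of the 2 are not independent. Fitted on these groups alone with the embryos as blocks, a setting chosen after seeing the data, 2921 genes were higher and 2922 lower.

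Of the 32 guidance and adhesion genes 16 were higher, 3 were lower and 13 did not pass (median 0.43). Unc5d stood at 3321 and 3325 CPM in newborn cells and 739 and 699 CPM in Neurod1_zero cells (log2 fold change 2.17, SE 0.22, edgeR adjusted p = 7.89e-05), and Sema3c at 180.3 and 187 against 32.6 and 33.9 CPM (log2 fold change 2.43, SE 0.11, edgeR adjusted p = 7.53e-07). Nrp1 stood at 797 and 769.7 against 288 and 307 CPM (log2 fold change 1.36, SE 0.13, edgeR adjusted p = 4.65e-05). These 3 genes were higher in newborn cells of both embryos, and their sums did not overlap. Epha4 stood at 392 and 355 against 154 and 131 CPM (log2 fold change 1.35, SE 0.10, edgeR adjusted p = 1.16e-05), and the second semaphorin receptor Nrp2 at 159 and 153 against 57.6 and 59.8 CPM (log2 fold change 1.37, SE 0.23, edgeR adjusted p = 0.00199). Each was higher in both embryos with no overlap of the sums. Of the reelin pathway, which tells migrating neurons where to stop, the receptor Lrp8 was higher at 208 and 212 against 122 and 123 CPM (log2 fold change 0.74, SE 0.068, edgeR adjusted p = 3.89e-05). The other receptor, Vldlr, was lower at 21.5 and 21.7 against 43.1 and 40.9 CPM (log2 fold change -0.997, SE 0.11, edgeR adjusted p = 0.000133), and Dab1, the adaptor that both receptors share, was lower at 416 and 593 against 1278 and 1325 CPM (log2 fold change -1.40, SE 0.20, edgeR adjusted p = 0.000765). So in newborn cells of both embryos Lrp8 stood above, and Vldlr and Dab1 below, their levels in Neurod1_zero cells.

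Of the 24 cytoskeletal genes 2 were higher, 5 were lower and 17 did not pass (median -0.10). Rnd2 stood at 199.7 and 181 against 87.7 and 89.0 CPM (log2 fold change 1.07, SE 0.070, edgeR adjusted p = 5.02e-06) and was higher in both embryos. Dcx did not pass the test, at 692 and 727 against 576 and 612 CPM. Stmn2, a microtubule regulator of growing axons, was lower at 864 and 1010.0 against 1594 and 1699.7 CPM (log2 fold change -0.85, SE 0.14, edgeR adjusted p = 0.00152), and so was Mapt, the axonal protein tau, at 359 and 418 against 710.3 and 730.3 CPM (log2 fold change -0.93, SE 0.094, edgeR adjusted p = 8.04e-05). For both the newborn sums lay below the Neurod1_zero sums of each embryo.

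Most deep-layer genes were lower in newborn cells, while upper-layer genes went both ways, and the difference between the lists was not tested. Of the 15 upper-layer genes 8, Unc5d among them, were higher and 5 lower in newborn cells (median 0.62), while of the 14 deep-layer and subplate genes tested 1 was higher and 11 were lower (median -0.93). Cux2, a factor of upper-layer neurons and their progenitors, stood at 239 and 257 against 94.8 and 98.1 CPM (log2 fold change 1.33, SE 0.071, edgeR adjusted p = 1.65e-06), and Lhx2 at 329.8 and 318 against 113 and 111 CPM (log2 fold change 1.49, SE 0.091, edgeR adjusted p = 3.05e-06). Both were higher in newborn cells of both embryos. Mef2c, an activity-regulated factor of maturing upper layers, was lower at 181 and 246 against 659 and 654 CPM (log2 fold change -1.66, SE 0.12, edgeR adjusted p = 1.2e-05). Among deep-layer genes, Sox5, which sets the order of deep-layer fates, stood at 1507 and 1655 against 3611 and 3482 CPM (log2 fold change -1.20, SE 0.087, edgeR adjusted p = 1.02e-05), Fezf2, which specifies subcerebral projection neurons, at 63.0 and 58.5 against 155 and 137 CPM (log2 fold change -1.30, SE 0.11, edgeR adjusted p = 1.96e-05), and Bcl11b at 439.8 and 517 against 651 and 672 CPM (log2 fold change -0.50, SE 0.10, edgeR adjusted p = 0.00499). All 3 were lower in the newborn cells of both embryos. The member that was higher was Nxph4, a neurexin ligand, at 24.2 and 22.2 against 13.0 and 10.6 CPM (log2 fold change 0.94, SE 0.17, edgeR adjusted p = 0.00382).

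Genes of maturation and the synapse were lower for 13 of 26 members, higher for 4 and did not pass for 9 (median -0.49). Grin2b, an NMDA receptor subunit, stood at 295 and 375 CPM in newborn cells and 772 and 832 CPM in Neurod1_zero cells (log2 fold change -1.30, SE 0.11, edgeR adjusted p = 2.15e-05). Nlgn1, a postsynaptic adhesion protein, stood at 996 and 964 against 2266 and 1994 CPM (log2 fold change -1.16, SE 0.086, edgeR adjusted p = 1.1e-05). Both were lower in newborn cells of each embryo. Of the glutamate transporters, Slc17a6 was higher at 203 and 189 against 45.6 and 39.5 CPM (log2 fold change 2.17, SE 0.14, edgeR adjusted p = 4.82e-06), while Slc17a7, the VGLUT1 transporter of mature cortical neurons, did not pass, at 26.8 and 22.9 against 33.4 and 28.9 CPM. Grik2, a kainate receptor subunit, was higher at 868 and 691 against 330.0 and 303 CPM (log2 fold change 1.26, SE 0.13, edgeR adjusted p = 6.94e-05), and so was Rbfox3 at 332 and 368 against 168 and 184 CPM (log2 fold change 0.96, SE 0.083, edgeR adjusted p = 2.95e-05). The newborn sums of both embryos lay above the Neurod1_zero sums for these 3 higher genes.

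Of the proneural cascade 8 of 20 genes were higher in newborn cells and 1 was lower (median 0.47), and of the Notch pathway 6 of 20 were higher and 1 was lower (median 0.15). Mfng, an enzyme that modifies Notch receptors with sugars, stood at 29.6 and 29.2 against 5.46 and 4.85 CPM (log2 fold change 2.47, SE 0.13, edgeR adjusted p = 1.54e-06). Nhlh1, a helix-loop-helix factor of young neurons, stood at 20.5 and 39.0 against 4.03 and 8.83 CPM (log2 fold change 2.17, SE 0.35, edgeR adjusted p = 0.00161), and Hey1, a Notch target, at 11.7 and 10.3 against 5.65 and 5.30 CPM (log2 fold change 0.97, SE 0.15, edgeR adjusted p = 0.00126). These were higher in both embryos, and Mfng stood between its levels in Eomes_high cells, at 136 and 143 CPM, and in Neurod1_zero cells. Id2, an inhibitor of helix-loop-helix factors, was lower at 331 and 351 against 485 and 484 CPM (log2 fold change -0.55, SE 0.10, edgeR adjusted p = 0.00275). Of the 22 cell cycle genes 3 were higher, namely Hmgb2, a chromatin protein, Ube2c, a mitotic ubiquitin enzyme, and Cdkn1b, and 1, Ccnd1, was lower (median 0.40). Cdkn1b stood at 135 and 112 against 81.0 and 66.5 CPM (log2 fold change 0.70, SE 0.13, edgeR adjusted p = 0.00304), higher in both embryos. None of the 12 immediate early genes passed by edgeR or by DESeq2 (0 of 12 in each), and 1 had an unadjusted p under 0.05. Over all tested genes 16.6% passed by edgeR. Tet1, which oxidises methylated DNA, was 1 of 3 higher genes among the 9 of DNA methylation, at 45.4 and 43.5 against 31.9 and 32.2 CPM (log2 fold change 0.43, SE 0.090, edgeR adjusted p = 0.00749).

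By the rule for the greatest fold changes, Zbtb20, a zinc finger factor of the hippocampus and of upper layers, stood at 839 and 707 CPM in newborn cells and 178 and 158 CPM in Neurod1_zero cells (log2 fold change 2.17, SE 0.10, edgeR adjusted p = 7.17e-07). Hdac9, a class IIa histone deacetylase, stood at 188 and 175 against 28.4 and 33.5 CPM (log2 fold change 2.51, SE 0.12, edgeR adjusted p = 7.17e-07), and Sstr2, a somatostatin receptor, at 95.7 and 82.7 against 18.8 and 17.5 CPM (log2 fold change 2.26, SE 0.13, edgeR adjusted p = 2.56e-06). All 3 were high in newborn cells and low in Neurod1_zero cells of both embryos. The long noncoding RNA Gm32647 headed this order at 166 and 79.6 against 13.3 and 10.3 CPM (log2 fold change 3.34, SE 0.36, edgeR adjusted p = 0.000119), but it was seen in only 151 and 172 of the newborn cells. On the lower side, Hs3st4, a heparan sulfate sulfotransferase of deep-layer neurons, stood at 87.9 and 90.6 against 595 and 584 CPM (log2 fold change -2.76, SE 0.22, edgeR adjusted p = 1.9e-05). Rgs6, a regulator of G protein signalling, stood at 81.3 and 91.0 against 585 and 548 CPM (log2 fold change -2.75, SE 0.18, edgeR adjusted p = 5.02e-06), and Nin, the centrosomal protein ninein, at 54.1 and 68.3 against 367 and 352 CPM (log2 fold change -2.59, SE 0.11, edgeR adjusted p = 7.17e-07). All 3 were low in newborn cells of both embryos. Of markers of other cells, 4 of the 7 of intermediate progenitors were higher in newborn cells (172 and 168 against 96.5 and 86.2 CPM summed), 2 of the 9 of radial glia were higher and 2 lower, and of the 6 Cajal-Retzius markers 2, Reln and Calb2, were higher, and their part in the results was not tested. Reln stood at 87.2 and 146 CPM in newborn and 71.0 and 52.0 CPM in Neurod1_zero cells, so the size of its difference depended on the embryo. It had a UMI in 213 and 270 newborn cells, and 10 cells held 35.1% and 50.4% of its UMIs.

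The third comparison looked within the newborn cells. In each embryo they were ordered by Neurod1 as a share of Neurod1, Neurod2 and Neurod6 together, and cut at its terciles into Neurod1-rich (338 and 399 cells), Neurod1-middle (350 and 458) and Neurod1-poor cells (349 and 432). Neurod1-rich cells carried more RNA of Zbtb20, Epha4 and intermediate progenitor genes, and Neurod1-poor cells more of Sox5 and the reelin adaptor Dab1. The sums are parts of the newborn sums of the other comparisons. Neurod1, Neurod2 and Neurod6 also chose the cells, so differences in genes that vary with them are in part built into this split. The p-values below are therefore no independent support for it. Of 12380 genes tested by edgeR, 233 were higher and 229 lower in Neurod1-rich cells, which is 1.88% and 1.85% of the genes, or 3.73% in all, with a median log2 fold change of 0.00. Median depth differed as well, at 9494.5 and 8322 UMIs in Neurod1-rich cells and 11905 and 10665.5 in Neurod1-poor cells. The sums tested were never thinned, so depth was not made equal in any test. Where cells were chosen and ordered on counts thinned to 4000 UMIs (536 and 682 newborn cells), 47 genes were higher and 12 lower. Of the 13 genes named below without haemoglobin, Zbtb20, Epha4 and Zfp385b passed the test there too and the other 10 did not, with log2 fold changes of 0.18 for Sema3c, 0.00 for Slc17a6, 0.63 for Nrp2, 0.25 for Mfng, 0.87 for Gadd45g, 2.28 for Calb2, -0.33 for Sox5, -0.46 for Dab1, -0.73 for Dync1i1 and -1.27 for Ldb2. With the embryos entered as blocks, so that the groups of 1 embryo are paired, 469 were higher and 466 lower. The counts moved with the threshold too, to 605 and 549 with at least 1 Neurod1 UMI required and to 147 and 125 with at least 3.

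Of the 31 guidance genes tested 5 were higher and 5 lower in Neurod1-rich cells (median -0.02). Sema3c stood at 247 and 259 CPM in Neurod1-rich cells and 118 and 133 CPM in Neurod1-poor cells (log2 fold change 0.98, SE 0.087, edgeR adjusted p = 0.000304), and Nrp2 at 229 and 205 against 107 and 122 CPM (log2 fold change 0.89, SE 0.10, edgeR adjusted p = 0.000825). Epha4 stood at 496 and 469 against 309 and 267 CPM (log2 fold change 0.72, SE 0.089, edgeR adjusted p = 0.0017). These 3 were higher in Neurod1-rich cells of both embryos. Dab1 stood at 223 and 326 against 639 and 882 CPM (log2 fold change -1.50, SE 0.21, edgeR adjusted p = 0.00304), lower in Neurod1-rich cells of both embryos and without overlap. Nrp1 did not pass, at 764 and 678 against 753 and 776 CPM. None of the 24 cytoskeletal genes passed by edgeR (0), 1 did by DESeq2, and 4 had an unadjusted p under 0.05. Over all tested genes 3.73% passed by edgeR and 1700 of 12380 had an unadjusted p under 0.05. The count of 0 thus does not set this list apart.

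Of the 6 tested markers of intermediate progenitors 4 were higher in Neurod1-rich cells (median 0.88), and of the 18 proneural genes 5 were higher and 1 lower (median 0.24). The 6 Cajal-Retzius markers summed to 155 and 320 CPM in Neurod1-rich and 60.9 and 112 CPM in Neurod1-poor cells, led by Reln. Only 2 of them were tested, of which 1 was higher, and their part in the results was not tested. Mfng stood at 40.3 and 41.8 against 21.3 and 20.4 CPM (log2 fold change 0.95, SE 0.12, edgeR adjusted p = 0.00212), and Gadd45g, a stress-response protein that proneural factors switch on, at 49.2 and 38.5 against 20.5 and 23.3 CPM (log2 fold change 0.97, SE 0.17, edgeR adjusted p = 0.00978). Slc17a6 stood at 244 and 231 against 160.1 and 156 CPM (log2 fold change 0.56, SE 0.085, edgeR adjusted p = 0.00446). These were higher in Neurod1-rich cells of both embryos. With at least 3 Neurod1 UMIs required, Slc17a6 did not pass (0.36). None of the 21 cell cycle genes passed by edgeR or by DESeq2 (0 in each), and 2 had an unadjusted p under 0.05. With 3.73% of all tested genes called by edgeR, this does not set the cell cycle list apart. Of the upper-layer genes 2 of 14 were higher and 4 lower (median -0.19), of the deep-layer genes 3 of 14 were higher and 4 lower (median -0.12), and of the synaptic genes 3 of 26 were higher and 5 lower (median -0.31). Sox5 stood at 951 and 1078 against 1938 and 2139.7 CPM (log2 fold change -1.03, SE 0.086, edgeR adjusted p = 0.000176). It was low in Neurod1-rich and high in Neurod1-poor cells of both embryos, with Neurod1-middle cells between them at 1485 and 1534 CPM.

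**Figure D3:**
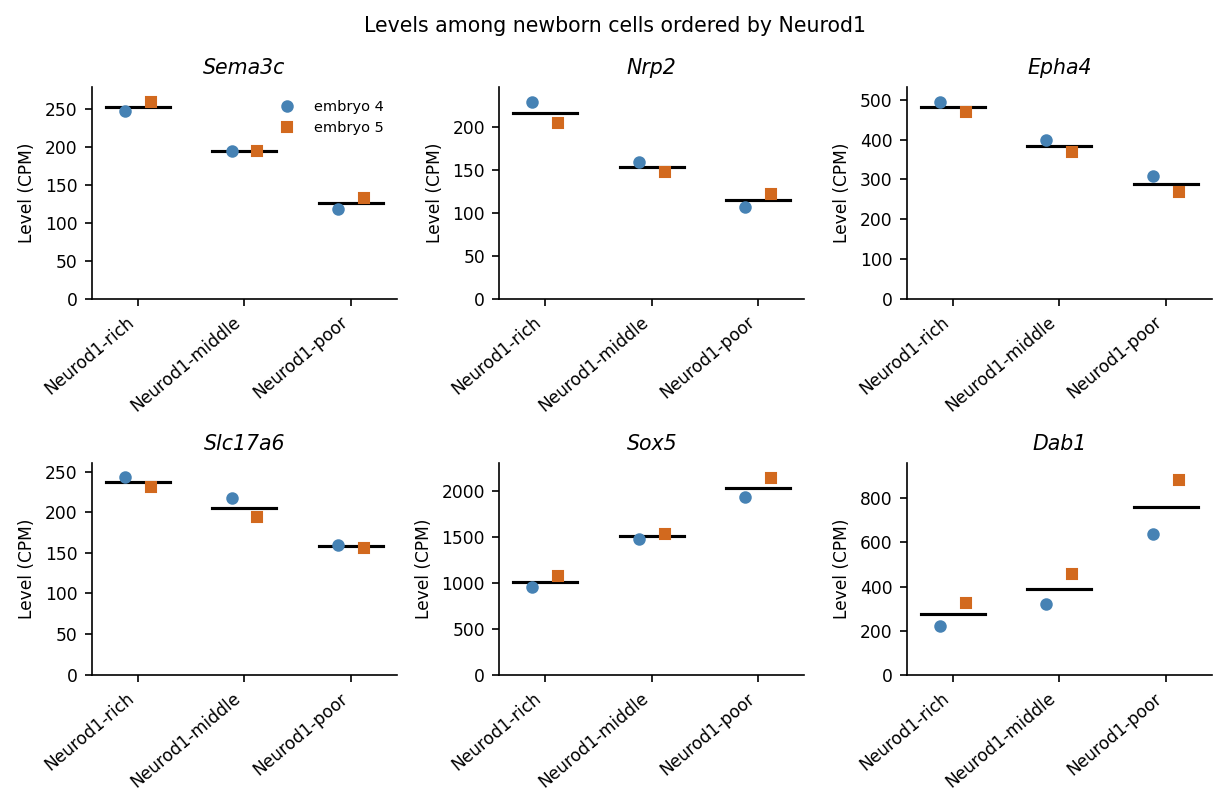
CPM (vertical axes, linear from 0) of Sema3c, Nrp2, Epha4, Slc17a6, Sox5 and Dab1 in the summed UMIs of Neurod1-rich, Neurod1-middle and Neurod1-poor newborn cells, with 1 point per embryo and a bar at the mean of the 2. Sema3c, Nrp2, Epha4 and Slc17a6 are highest in Neurod1-rich cells, and Sox5 and Dab1 in Neurod1-poor cells.

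By the rule for the greatest fold changes, Zbtb20 stood at 1565 and 1299 CPM in Neurod1-rich cells and 421 and 412 CPM in Neurod1-poor cells (log2 fold change 1.75, SE 0.11, edgeR adjusted p = 3.71e-05), and had a UMI in 318 of 338 and 363 of 399 Neurod1-rich cells. Others rested on few cells. Zfp385b, a zinc finger protein, stood at 131 and 129 against 31.9 and 38.3 CPM (log2 fold change 1.86, SE 0.11, edgeR adjusted p = 3.71e-05), from 55 and 62 Neurod1-rich cells, of which 10 held 60.8% and 48.3% of the UMIs. Calb2, the calcium-binding protein calretinin and a Cajal-Retzius marker, stood at 46.7 and 49.4 against 3.73 and 6.57 CPM (log2 fold change 3.17, SE 0.22, edgeR adjusted p = 5.62e-05), from 36 and 35 cells, of which 10 held 65.5% and 60.8%. Both were higher in Neurod1-rich cells of both embryos, through a small group of cells in each. Prox1, the factor of dentate granule neurons, was looked at after seeing these values and was found in 19 and 16 Neurod1-rich cells. It was also found in 8 and 5 Neurod1-middle and 2 and 5 Neurod1-poor cells. In the Neurod1-rich cells 10 cells held 79.5% and 77.8% of its UMIs, and no test was made. On the lower side, Dync1i1, a dynein subunit, stood at 13.1 and 16.4 against 163 and 163 CPM (log2 fold change -3.49, SE 0.24, edgeR adjusted p = 5.52e-05), and Ldb2, a cofactor of LIM factors in deep-layer neurons, at 33.6 and 89.3 against 265 and 381 CPM (log2 fold change -2.42, SE 0.34, edgeR adjusted p = 0.00294). Both were low in Neurod1-rich cells of both embryos, with a log2 ratio for Ldb2 of -3.01 in embryo 4 alone.

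Of the 5 erythroid markers 3 were lower in Neurod1-rich cells, and these calls rested on single cells. Hba-a1, an alpha globin, stood at 55.1 and 119.6 against 250.3 and 423 CPM (log2 fold change -1.97, SE 0.35, edgeR adjusted p = 0.0101). Hba-a1 and Hba-a2, like Hbb-bs and Hbb-bt, are near-identical, so the split between them is uncertain. With the cells of at least 100 haemoglobin UMIs left out (2 and 1 Neurod1-poor cells and no Neurod1-rich cell, a setting chosen after seeing the data) the log2 fold change of Hba-a1 was 0.54 (SE 0.48) and did not pass, so neither the call nor its direction held without them.

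Unc5d varied widely among the newborn cells. After thinning to 3000 UMIs its median was 10 UMIs in both embryos, with quartiles of 3 and 17 in embryo 4 and 3 and 18 in embryo 5. The newborn cells were then split on it, as a choice made after seeing the data, with no test and with another random draw of 3000 UMIs per cell. In this split 143 and 218 cells had 0 Unc5d UMIs (13.8% and 17.0%, Unc5d-low), and 722 and 869 had at least 5 (69.7% and 67.7%, Unc5d-high). Before thinning, Unc5d-low cells held 192 and 193 Unc5d UMIs (84.5 and 65.8 CPM). Such a low level follows from choosing cells with 0 Unc5d UMIs after thinning, and the background share in it was not measured. They were deeper before thinning, with medians of 14811 and 12622 UMIs against 9898 and 8373, and 47.6% and 44.5% of them were Neurod1-poor, against 31.3% and 28.9% of the Unc5d-high cells.

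Some genes were far higher in Unc5d-low than in Unc5d-high cells, and others far lower, and the genes named here were chosen after their values were seen. Crym, a thyroid hormone binding protein of subcerebral neurons, stood at 96.4 and 53.9 CPM in Unc5d-low cells and 1.53 and 1.81 CPM in Unc5d-high cells. Dab1 stood at 1010.3 and 1289 against 209 and 298 CPM, and Slit3, a slit ligand, at 764 and 573 against 44.2 and 47.1 CPM. Each was higher in Unc5d-low cells of both embryos. In the other direction, Cux2 stood at 71.3 and 107 CPM in Unc5d-low and 316 and 335 CPM in Unc5d-high cells, and Foxp2, a forkhead factor, at 62.5 and 53.5 against 423 and 369.8 CPM. Nrg1, the ligand neuregulin, stood at 1302 and 1099 against 6651 and 6346 CPM, and Slc17a6 at 58.1 and 59.7 against 272 and 261 CPM. These 4 genes were lower in Unc5d-low cells of both embryos. Bcl11b stood at 453 and 632 against 438 and 476 CPM.

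Markers of other cells moved with this split in part, and their part in it was not tested. The 9 radial glia markers summed to 753 and 726 CPM in Unc5d-low cells, led by Ptprz1, and 428 and 376 CPM in Unc5d-high cells, with 3 of the 9 higher in Unc5d-low cells of both embryos. The 7 intermediate progenitor markers summed to 94.2 and 93.4 against 194 and 201 CPM. Among radial glia markers, Ptprz1 was higher at 442 and 494 against 121 and 137 CPM. Vim was higher too, at 218 and 155 against 88.8 and 67.4 CPM. Fabp7 was lower, at 73.5 and 66.8 against 178 and 134 CPM. The intermediate progenitor sum was lower in Unc5d-low cells of both embryos. The 6 Cajal-Retzius markers summed to 114 and 162 against 106 and 183 CPM, led by Reln, and of them Calb2 was the only one higher in Unc5d-low cells of both embryos, at 62.5 and 57.3 against 4.96 and 4.83 CPM. The 5 mural markers summed to 81.9 and 1.02 against 1.14 and 3.38 CPM, led by Rgs5, so they were high in Unc5d-low cells of embryo 4 alone. The 5 erythroid markers summed to 155 and 283 against 728 and 663 CPM.

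Cell by cell, after thinning to 3000 UMIs, Slc17a6 had a UMI in 47.9% and 47.3% of newborn cells with an Unc5d UMI left and in 12.4% and 13.0% of those with none left, and Sema3c in 35.4% and 40.6% against 23.4% and 21.4%.

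The promoters of the genes with the greatest fold changes were searched for CAGATG or its reverse complement CATCTG, an E-box form bound by Neurog2 and NeuroD factors, from 250 bases before to 50 after each start that RefSeq lists (GRCm38.p6), of which a gene can have several. These letters were in the promoters of 19.2% of all genes (5196 of 27025). Of the 7 genes higher than in Neurod1_zero cells that had an entry, 5 held them (Hdac9, Sema3c, Slc17a6, Ltbp1, which binds latent TGF-beta, and Rad51b, a DNA repair protein), and of the 7 lower genes 2 did (Ctnna3 and Dpp10). Against Eomes_high cells, 2 of the 9 higher genes (Myt1l and Ndst3) and 2 of the 6 lower genes (Lpar1 and Thsd4) held them. Between Neurod1-rich and Neurod1-poor cells, 1 of the 7 higher genes (Galntl6) and 1 of the 7 lower genes (Pde4b) held them. A match is a run of letters and not a measured binding site. The stretches of 4 of the higher genes are shown because these genes set newborn cells apart from Neurod1_zero cells, at chr5:17574604-17574633 (plus strand) for Sema3c, chr7:51624420-51624449 (plus strand) for Slc17a6, chr12:34917154-34917183 (minus strand) for Hdac9 and chr17:75178612-75178641 (plus strand) for Ltbp1, each read 5′ to 3′ with the searched letters in capitals. Those of Slc17a6 and Ltbp1 belong to listed starts inside the gene and not to its outermost start.
Sema3c: cggcggcccgtgCAGATGcggcgggccacg
Slc17a6: ctctgagtggtaCAGATGgccctgtgggtg
Hdac9: agctgcccccagCATCTGttgccatgccaa
Ltbp1: ccctctgcattaCATCTGcctgtctgtcgg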

How the data were processed

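Single-cell RNA was measured in 2 control embryos, with 1 library each. The authors deposited raw UMI counts per gene and barcode, made with Cell Ranger on mm10, with no normalization. The version is 7.0.0 in the processing notes and 7.1.0 in the matrix headers, and whether intron reads were counted is not given in the sources used here. A barcode was kept when it had 1000 or more genes detected and no more than 10% of its UMIs from mitochondrial genes. The members were chosen on raw UMIs and their counts summed per embryo, and the members and gene lists were chosen with earlier results of these data known.

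The sums of 5 groups (newborn, Eomes_high, Neurod1_zero, Slc1a3_high and Gad_high cells, 10 sums in 1 fit) and, separately, of the 3 Neurod1 groups of newborn cells (6 sums) were filtered with filterByExpr, scaled by TMM and tested with the edgeR quasi-likelihood test, with Benjamini-Hochberg correction over all tested genes. The call pipeline was tested on simulated data. There, not all changed genes were called. At a true log2 fold change of 1 in size, 49.5% were called against Eomes_high cells, 63.6% against Neurod1_zero cells and 66% within newborn cells. A gene that did not pass can therefore still differ. For the comparison with Neurod1_zero cells and that within newborn cells the share of calls on unchanged genes (8.75% and 8.14%) was above the limit set. Calls near the threshold are thus less sure than the adjusted p states. Groups of the same embryo are paired, and the correlation of their deviations was 0.0631 for newborn and Eomes_high, 0.224 for newborn and Neurod1_zero, and 0.201 for Neurod1-rich and Neurod1-poor cells. CPM are unscaled shares of each sum. The genes that chose the cells were given no test.

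Named genes are those of the lists and, for each comparison, up to 10 with the greatest log2 fold change in each direction among those with an adjusted p under 0.05, a mean of at least 50 CPM in the higher group and the same direction in both embryos, without mitochondrial and ribosomal protein genes. Others are said to have been chosen after their values were seen. The values of 1 listed gene are not reported. Doublets were scored by the Scrublet approach (2 simulated doublets per cell, 2000 variable genes, 30 principal components, 0.8% per 1000 barcodes) and kept. Shares after thinning leave out cells below the depth named. Coordinates and promoters are from RefSeq (GRCm38.p6). Coordinates were matched by symbol for 287 of 287 genes, and promoters only for the genes that had an entry.

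Alternatives were DESeq2, DESeq2 size factors in edgeR, no filter on low counts, the embryo as a block, other limits on detected genes (500 and 2000), mitochondrial UMIs (5%), Neurod1 (1 and 3), Eomes (0) and Neurod2 with Neurod6 (5), thinning to 4000 UMIs, removal of scored doublets, only the 2 compared groups in the fit, non-cycling progenitors, each embryo left out, and the settings named as chosen after seeing the data. Thinning to 4000 UMIs set which cells were chosen and how they were ordered, and their unthinned counts were then summed. Tools were R 4.3.3, edgeR 4.0.16, DESeq2 1.42.0, Python 3.11.15, numpy 2.4.6, scipy 1.17.1, pandas 2.3.3, scikit-learn 1.9.0 and matplotlib 3.10.9.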

Additional observations from a re-analysis of the deposited data

How the results depend on the processing

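Newborn cells were 10.4% of kept cells as a mean of the embryos. The share was 17.9% with at least 1 Neurod1 UMI required, 6.61% with at least 3, 8.95% with no Eomes UMI allowed and 5.96% with all cells thinned to 4000 UMIs, and 9.53% to 11.2% without 1 embryo. The share thus moved with the thresholds and with depth.

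Against Eomes_high cells, the counts were 2096 higher and 1953 lower with the cells that carry Eomes and Neurod1 as the comparison group, a setting chosen after seeing the data. In that setting the log2 fold changes of Unc5d (-0.30), Slc17a6 (-0.83) and Cdkn1b (-0.21) turned. Mki67 turned to 10.53 where Eomes_high cells with an Mki67 or Top2a UMI were left out, which follows from that choice. Against Neurod1_zero cells, the counts were 2921 and 2922 with those groups alone in the fit and the replicate block, a setting also chosen after seeing the data.

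Between Neurod1-rich and Neurod1-poor cells, 605 genes were higher and 549 lower with at least 1 Neurod1 UMI required, 147 and 125 with at least 3, 47 and 12 with cells chosen after thinning to 4000 UMIs, 469 and 466 with the paired replicate block, and 449 and 462 with no filter on low counts. Hba-a1 turned to 0.48 with at least 1 Neurod1 UMI, 0.50 with at least 3, 3.37 with cells chosen after thinning and 0.54 without the cells rich in haemoglobin. Except where the construction is named, the cause was not tested.

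Over 81 gene results in the 3 comparisons and all alternatives with a test, 1336 of 1361 values kept their direction and side of the threshold, 17 no longer passed and 8 turned. With the replicate block 81 of 81 kept both, so blocking changed none of these calls. The 81 are the tested genes named in the text, so these counts do not speak for all genes, whose counts of calls moved as given above. Of the 14 within newborn cells, only 3 kept both with cells chosen after thinning to 4000 UMIs. Leaving out 1 embryo leaves the value of the other, so it gave no count of calls and does not measure stability.

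With 2 embryos of 1 genotype and 1 library each, embryo and library cannot be told apart, and no value speaks to other ages or genotypes. Genes at a few CPM rest on few UMIs.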
